A study of Mus musculus with 6 samples.

Results

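Collagens are secreted triple helices in which each chain is the product of its own gene. The 43 mouse genes described here are those whose symbol in the platform annotation is that of a collagen chain and whose probe set names no other gene, out of 30701 genes measured. They were measured on 6 Affymetrix arrays of bone marrow stromal cells, the adherent marrow cells that can give rise to bone, fat and cartilage cells. The arrays held cells of 18-month mice (3 arrays) or 3-month mice (3 arrays). The cells of both ages were freed from crushed femurs with collagenase, sorted as positive for Sca-1 and CD29 and negative for CD45 and CD11b, and grown on in culture after being reseeded at the first passage, so the RNA is that of cultured cells. The sources used here do not give the strain, the sex or how many animals stand behind an array. The arrays of an age are labelled biological replicates, and p-values set the difference between ages against the spread among these arrays only.

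By class the genes were 11 fibrillar, 9 network-forming, 6 of type VI, 9 FACIT (fibril-associated collagens with interrupted triple helices), 4 transmembrane, 2 multiplexin and 2 other chains. Fibrillar chains (types I, II, III, V, XI, XXIV and XXVII) build the tension-bearing fibrils of bone, tendon and stroma, with type I the main protein of bone. FACIT chains bind to the surface of fibrils. Type VI chains form beaded filaments close to cells, and type IV chains form the sheet of basement membranes. In bone marrow, stromal and bone-lining cells are the main source of fibrillar collagen.

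The deposited values are on a log2 scale. Array medians lay between 5.37 and 5.44, and r across genes was 0.996 to 0.999 within an age and 0.989 to 0.990 between ages. The 95th percentile of the negative control probe sets was 7.61, and a mean at or under it is called within the control range here; no fold is given for it. The 23 classes of antigenomic probes, designed to match nothing in the mouse genome, all read higher at 18 months, by 0.0060 to 0.29 on the log2 scale. The 5222 negative control probe sets went the other way in the median, by -0.26, with differences from -2.36 to 1.86. The sort marker Itgb1 (CD29) read 11.76 at 18 months and 11.86 at 3 months, Ptprc (CD45) 3.62 and 3.65, and Itgam (CD11b) 5.24 and 5.26. Ly6a (Sca-1) was not analysed here. Of 12 marrow stromal markers tested, 9 lay above the control range at both ages, the transcription factor gene Prrx1 and the receptor gene Pdgfrb among them. The other 3 lay within it: Thy1 read 6.28 at 18 months and 6.31 at 3 months, Eng 6.60 and 6.53, and Nt5e 7.05 and 7.58.

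Of the 43 genes 42 passed the filter on low values, which asked for a mean over all arrays of at least 5.40, and all 42 had a higher mean at 18 months, as did 52.9% of all genes tested. Col10a1, of hypertrophic cartilage, did not pass the filter, with 5.38, 5.64 and 5.35 on the log2 scale at 18 months and 5.28, 5.07 and 5.36 at 3 months. By limma with Benjamini-Hochberg adjustment over all 20190 genes tested, 28 of the 42 rose with age and none fell, against 18.4% of all genes tested that rose and 22.1% that fell. No collagen gene was lower at an unadjusted p under 0.05 either. The median difference of the 42 was 0.19 on the log2 scale, beside 0.01 over all genes tested. The values of the 2 ages did not overlap in 37 of the 42, aged above young, which held for 24.4% of all genes tested. When tested against a difference of 0.3 on the log2 scale, 10 of the 42 passed, all higher, against 5.79% of all genes tested that passed as higher and 4.04% as lower.

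Those 10 were Col6a2, Col6a1, Col3a1, Col12a1, Col6a3, Col4a1, Col1a1, Col5a1, Col4a2 and Col1a2, with both means of each above the control range. Their differences ran from 0.57 to 2.23 on the log2 scale. The other 32 tested genes had differences from 0.03 to 0.42. The nearest gene past the test against 0.3 was Col1a2 at 0.57, and the nearest outside it was Col2a1 at 0.42. Leaving out any 1 array left all 10 past both tests. The count of 28 was less steady: it was 16, 17 and 17 without 18-month array 1, 2 or 3, and 24, 18 and 35 without 3-month array 1, 2 or 3.

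**Figure D1:**
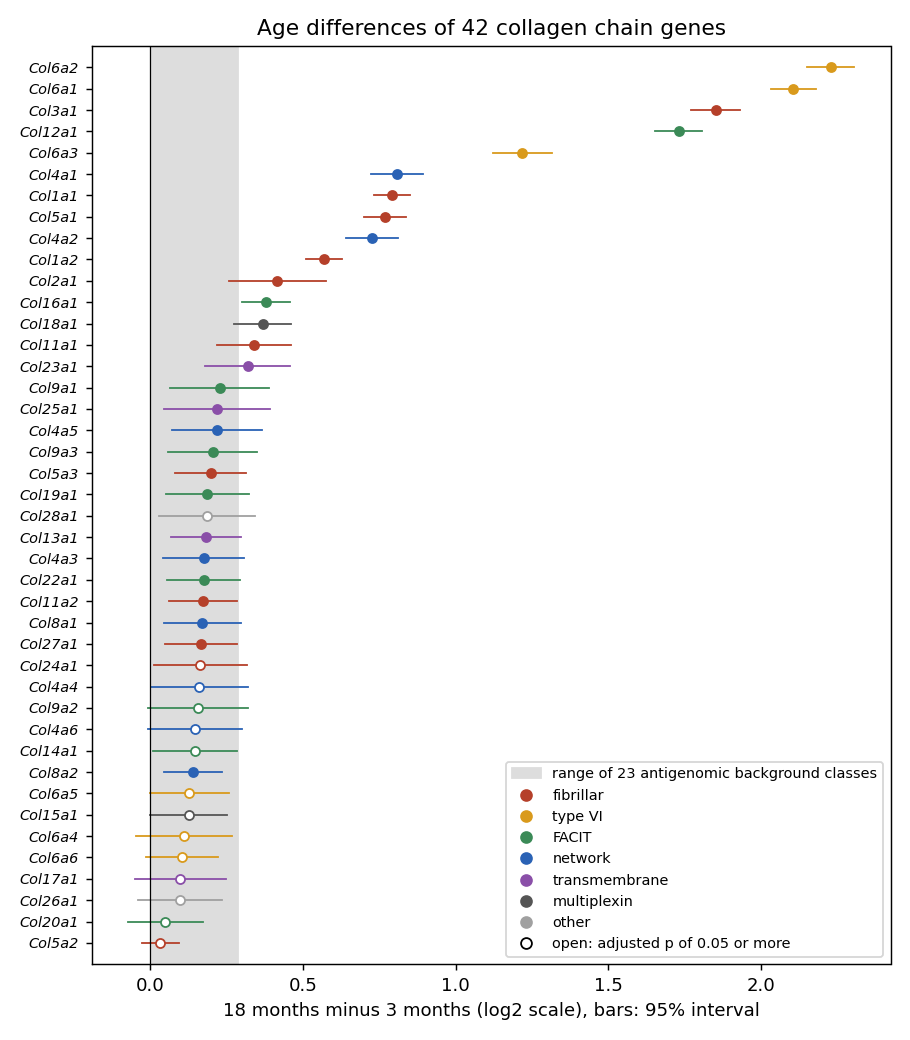
Difference between 18-month and 3-month means on the log2 scale for 42 collagen chain genes, with 95% intervals from limma and coloured by collagen class; open points did not pass the adjusted p threshold of 0.05 and the grey band spans the 23 antigenomic background classes. The 10 genes from Col1a2 (0.57) to Col6a2 (2.23) stand to the right of the rest, and 27 of the other 32 lie in the band.

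The type VI genes Col6a2 and Col6a1 held the largest differences of the family, while Col6a3 came after Col3a1 and Col12a1. Col6a1 and Col6a2 encode the chains found in every type VI trimer, and the third chain is that of Col6a3 or one of its relatives Col6a4, Col6a5 and Col6a6. Col6a2 read 11.03, 11.00 and 10.94 at 18 months, against 8.77, 8.78 and 8.73 at 3 months. Col6a1 read 11.84, 11.82 and 11.85 at 18 months, against 9.77, 9.75 and 9.68 at 3 months. Every aged array was above every young one for both, and the change was 4.68-fold and 4.30-fold (limma, adjusted p = 1.62e-09 for each). Col6a3 read 10.98, 10.95 and 11.00 at 18 months, against 9.83, 9.78 and 9.67 at 3 months. It rose 2.33-fold, a log2 difference of 1.22 ± 0.04 (SE, limma, adjusted p = 8.79e-08). The relatives Col6a4, Col6a5 and Col6a6 had means within the control range at both ages and did not pass, with differences of 0.11, 0.13 and 0.10. The median over the 6 type VI genes was 0.67, a value between those of the 3 that rose and the 3 that did not pass.

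The sequences just before the RefSeq gene starts (GRCm38.p6) of the type VI chains that rose are shown because Col6a2 and Col6a1 rose by the largest amounts of the family and Col6a3 encodes their partner chain. Those of Col3a1 and Col1a2 follow for the fibrillar chains. Each is the 250 bases before the start, 5′ to 3′ on the gene's strand, with CCAAT or TATAAA on either strand in capitals. Positions are chr10:76726045-76726294 (minus strand) for Col6a1, chr10:76623405-76623654 (minus strand) for the first listed start of Col6a2, chr1:90843972-90844221 (minus strand) for Col6a3, chr1:45311288-45311537 (plus strand) for Col3a1 and chr6:4505368-4505617 (plus strand) for Col1a2.
Col6a1: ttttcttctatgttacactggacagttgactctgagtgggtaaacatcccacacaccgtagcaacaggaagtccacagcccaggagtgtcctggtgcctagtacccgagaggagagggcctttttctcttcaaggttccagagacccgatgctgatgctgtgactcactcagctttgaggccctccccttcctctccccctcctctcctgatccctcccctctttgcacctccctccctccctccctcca
Col6a2: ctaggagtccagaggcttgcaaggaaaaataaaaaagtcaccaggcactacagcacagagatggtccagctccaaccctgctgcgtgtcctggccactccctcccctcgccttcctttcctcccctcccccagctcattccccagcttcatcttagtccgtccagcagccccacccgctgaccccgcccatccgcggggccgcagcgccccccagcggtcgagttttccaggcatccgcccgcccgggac
Col6a3: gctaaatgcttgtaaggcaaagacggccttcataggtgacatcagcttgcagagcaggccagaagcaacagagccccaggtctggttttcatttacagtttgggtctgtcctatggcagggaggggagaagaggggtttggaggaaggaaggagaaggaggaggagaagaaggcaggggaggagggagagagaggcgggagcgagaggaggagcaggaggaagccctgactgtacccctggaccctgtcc
Col3a1: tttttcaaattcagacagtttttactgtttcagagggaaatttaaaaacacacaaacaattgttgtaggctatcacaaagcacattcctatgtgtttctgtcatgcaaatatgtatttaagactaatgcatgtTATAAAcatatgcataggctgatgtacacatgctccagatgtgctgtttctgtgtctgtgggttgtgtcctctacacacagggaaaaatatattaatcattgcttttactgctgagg
Col1a2: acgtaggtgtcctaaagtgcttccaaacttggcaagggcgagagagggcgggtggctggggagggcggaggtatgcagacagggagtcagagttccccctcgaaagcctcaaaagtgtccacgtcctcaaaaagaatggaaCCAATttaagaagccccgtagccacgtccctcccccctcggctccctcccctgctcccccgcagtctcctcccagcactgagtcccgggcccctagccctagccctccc
RefSeq windows matched 34 of the 43 genes, 8 of the 10 past the test against 0.3 among them. CCAAT on either strand was in the windows of Col1a2, Col4a1 and Col4a2, 3 of the 8. It was in 9 of the 26 other members with a window, against 33.8% of all 32851 windows. Of the 8, only Col3a1 had TATAAA, beginning 117 bases before the start. TATAAA was in 4 of the 26 other members with a window, against 12.4% of all windows. The GC box GGGCGG was in 4 of the 8 (Col1a2, Col4a2, Col5a1 and Col6a2) and in 16 of the 26 other members with a window, against 32.7% of all windows. Each motif was searched on both strands, and none of these motifs contains another. A match is a description of the letters only.

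Of the 11 fibrillar genes 9 rose and 2 did not pass, with a median of 0.34. Col3a1 encodes the only chain of type III collagen, which joins type I in thin fibrils. It read 11.32, 11.30 and 11.33 at 18 months, against 9.52, 9.47 and 9.40 at 3 months. It rose 3.61-fold, by 1.85 ± 0.03 on the log2 scale (SE, limma, adjusted p = 3.25e-09). Col1a1 and Col1a2 encode the chains of type I collagen. Col1a1 read 13.22, 13.20 and 13.25 at 18 months, against 12.45, 12.42 and 12.42 at 3 months. Col1a2 read 12.97, 12.97 and 12.99 at 18 months, against 12.43, 12.40 and 12.39 at 3 months. Both rose with no overlap, Col1a1 by 1.73-fold and Col1a2 by 1.48-fold (limma, adjusted p = 6.28e-08 and 4.04e-07). Whether values this high on the scale were compressed by the scanner was not tested.

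Type V chains set the width of type I fibrils, and their genes differed from each other. Col5a1 read 9.86, 9.87 and 9.89 at 18 months, against 9.10, 9.13 and 9.08 at 3 months, and rose 1.70-fold (limma, adjusted p = 1.79e-07). Col5a2 read 10.93, 10.91 and 10.92 at 18 months and 10.88, 10.91 and 10.87 at 3 months, and its ages overlapped. The log2 difference was 0.03, with a 95% interval of -0.03 to 0.09 (limma, adjusted p = 0.375). The upper end of that interval lies below the difference of 0.3 used in the other test. The third type V gene, Col5a3, read 7.81, 7.80 and 7.81 at 18 months and 7.51, 7.66 and 7.66 at 3 months, and rose 1.15-fold (limma, adjusted p = 0.0125).

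Col2a1 and Col11a1, of cartilage fibrils, had 3-month means within the control range. Col2a1 read 7.98, 7.98 and 8.01 at 18 months and 7.44, 7.55 and 7.73 at 3 months. Col11a1 read 6.74, 6.75 and 6.77 at 18 months and 6.35, 6.40 and 6.49 at 3 months, all within the control range. They differed by 0.42 and 0.34 on the log2 scale (limma, adjusted p = 0.00122 and 0.000853), and neither passed the test against 0.3 (limma, adjusted p = 0.477 and 1). Without 3-month array 3, Col2a1 passed it (limma, adjusted p = 0.015). Col11a2 and Col27a1 rose by 0.17 each, and Col24a1 did not pass at 0.16.

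**Figure D2:**
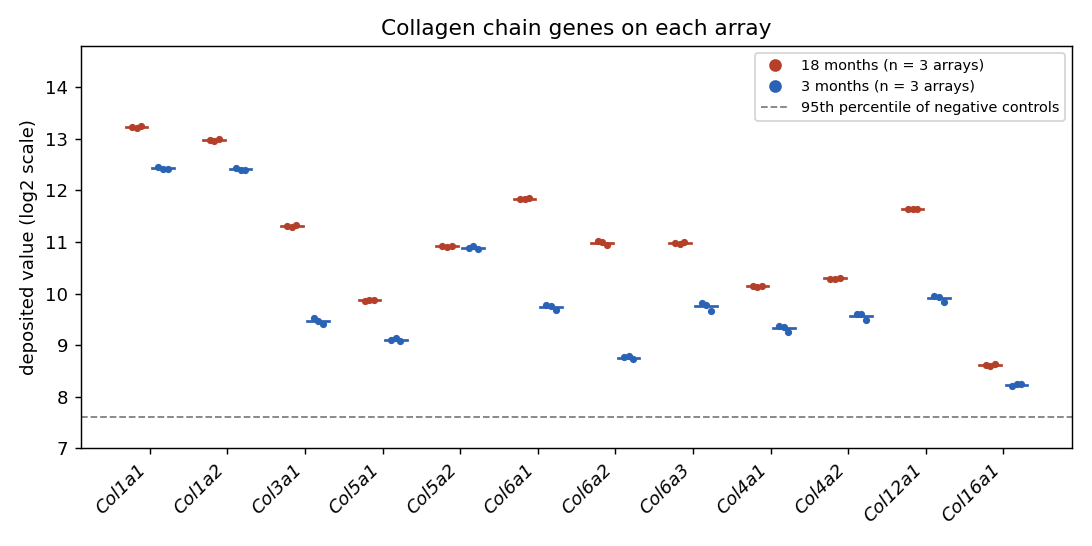
Deposited log2 values on each of 6 arrays for 12 collagen chain genes, 18-month arrays left of 3-month arrays, with short lines at the group means and a dashed line at the 95th percentile of the negative controls (7.61). The 18-month points sit above the 3-month points by 2.23 in Col6a2, 1.85 in Col3a1 and 1.73 in Col12a1, and by 0.03 in Col5a2.

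Among network-forming chains, the basement membrane genes Col4a1 and Col4a2, whose products join in the common type IV trimer, rose together. Col4a1 read 10.14, 10.12 and 10.15 at 18 months, against 9.37, 9.36 and 9.26 at 3 months. Col4a2 read 10.29, 10.29 and 10.30 at 18 months, against 9.60, 9.61 and 9.49 at 3 months. The ages did not overlap and the folds were 1.75 and 1.65 (limma, adjusted p = 4.67e-07 and 1.12e-06). These genes lie next to each other on chromosome 8 on opposite strands, with RefSeq starts 21 bases apart. The chains of specialised basement membranes, Col4a3, Col4a4, Col4a5 and Col4a6, had all means within the control range and differences of 0.15 to 0.22. Of those Col4a3 and Col4a5 passed.

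Col8a1 and Col8a2, of the type VIII lattice under endothelia, differed little. Col8a1 read 8.11, 8.15 and 8.12 at 18 months and 8.07, 7.92 and 7.88 at 3 months, a difference of 0.17 (limma, adjusted p = 0.034). Col8a2 read 7.49, 7.43 and 7.46 at 18 months and 7.30, 7.34 and 7.32 at 3 months, a difference of 0.14 (limma, adjusted p = 0.0254). In all 6 of the 8 tested network genes rose, with a median of 0.17. That count was 2, 3 and 2 without 18-month array 1, 2 or 3, and 2 without 3-month array 2.

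Col12a1 stood apart among the 9 FACIT genes. Type XII collagen coats type I fibrils in tendon, ligament and bone lining. Col12a1 read 11.63, 11.65 and 11.63 at 18 months, against 9.95, 9.93 and 9.84 at 3 months. It rose 3.32-fold, by 1.73 ± 0.03 on the log2 scale (SE, limma, adjusted p = 4e-09). Col16a1, which is found with fibrils and fibrillin microfibrils, read 8.61, 8.61 and 8.63 at 18 months and 8.21, 8.26 and 8.24 at 3 months. It rose 1.30-fold and did not pass the test against 0.3 (limma, adjusted p = 0.192). Col14a1, whose product also coats fibrils, was within the control range and did not pass (difference 0.15). The cartilage FACIT genes Col9a1, Col9a2 and Col9a3 had differences of 0.23, 0.16 and 0.20, of which Col9a2 did not pass. Col19a1 and Col22a1 passed with 0.19 and 0.17, and Col20a1 did not with 0.05. The FACIT median was 0.19, with 6 of 9 genes higher, a count that was 2 without any 1 of the 18-month arrays and 2 without 3-month array 2.

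Of the remaining classes no gene passed the test against 0.3. The multiplexin gene Col18a1, whose product is the parent of endostatin, differed by 0.37 (limma, adjusted p = 0.000103), and Col15a1 by 0.13, which did not pass. Among transmembrane collagens Col23a1 differed by 0.32, Col25a1 by 0.22 and Col13a1 by 0.18, and these passed. Col17a1, of epithelial hemidesmosomes, did not pass at 0.10, nor did Col26a1 and Col28a1 at 0.10 and 0.19. The count of transmembrane genes that rose, 3, was 1 without 18-month array 1 or 2. Without 3-month array 3 the multiplexin count was 2, against 1 over all arrays, and that of the other chains 1, against 0. Only Col18a1 and Col13a1 of these 8 had an 18-month mean above the control range.

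Most of the small differences lay within the span of those of the antigenomic classes, which pools classes of low and high signal. The 5222 negative control probe sets had a median difference of -0.26 instead. Of the 32 genes not past the test against 0.3, 27 had a difference within the span of the antigenomic classes, and the other 5 (Col2a1, Col16a1, Col18a1, Col11a1 and Col23a1) lay above it. The share of all genes tested with a difference in that span was not counted. The 27 include Col5a2, Col5a3 and Col8a1, with both means above the control range. Antigenomic classes with 15 to 19 GC bases, at levels like those of the dim genes, differed by 0.12 to 0.18. Of the 32, 21 had both means within the control range, and 9 of these 21 passed the adjusted p threshold, against 12.4% of all genes with both means in that range. None of the 21 passed the test against 0.3, against 2.56% of such genes. Their median difference was 0.16, beside 0.04 over all such genes, of which 64.1% had a difference above 0. The array order differed too. In 30 of the 32, 3-month array 1 had the lowest value of its group, which was true of none of the 10 genes past the test against 0.3, where 3-month array 3 was lowest in 9. The mean over the 32 was 7.18, 7.18 and 7.20 at 18 months and 6.91, 7.02 and 7.07 at 3 months. Without 3-month array 1 their median difference was 0.12, with all 32 still above 0, beside 0.17 over all arrays. The part of background in these small differences was not tested.

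**Figure D3:**
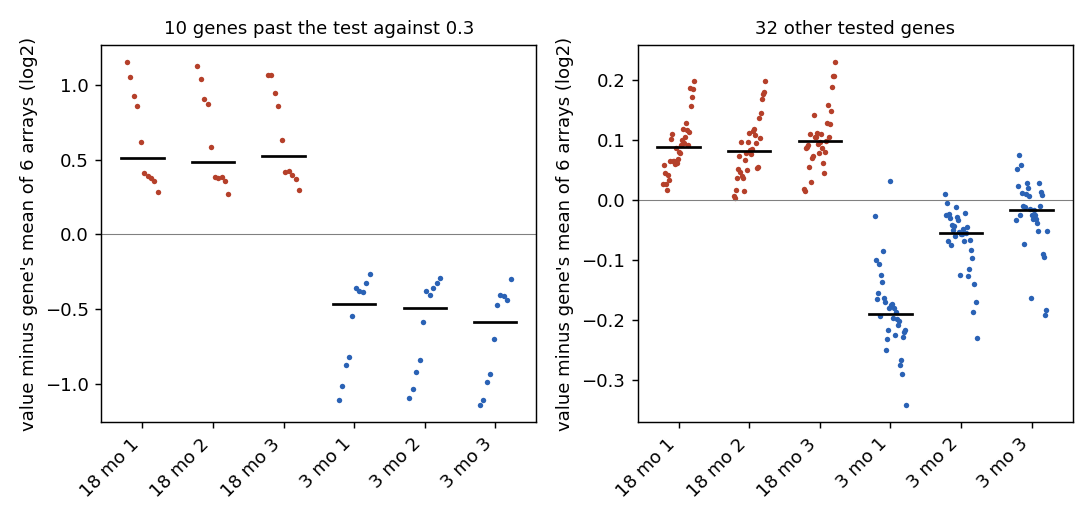
Each collagen chain gene's log2 value minus its own mean over the 6 arrays, by array with 18 months (18 mo) left of 3 months (3 mo), for the 10 genes past the test against 0.3 (left) and the other 32 tested (right, on a smaller scale). Black lines are medians; on the right, 3-month array 1 lies lowest and is the lowest of its group for 30 of the 32 genes.

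Chains that share a trimer or fibril were then set against each other, as the log2 difference between partner chains on each array, in 8 pairs. Levels of different probe sets cannot be compared, so only how this difference changed with age is read. Col1a1 minus Col1a2 was 0.24, 0.24 and 0.26 at 18 months, against 0.02, 0.02 and 0.03 at 3 months, a shift of 0.22. Col5a1 minus Col5a2 shifted by 0.74, with -1.06, -1.04 and -1.04 at 18 months and -1.77, -1.78 and -1.79 at 3 months. In type I the value of Col1a1 thus rose by more than that of Col1a2. Whether both probe sets respond alike to a change in RNA was not tested. In type V Col5a1 rose while Col5a2 did not pass. Col6a3 minus Col6a1 was -0.85, -0.87 and -0.86 at 18 months, against 0.06, 0.03 and -0.01 at 3 months, a shift of -0.89. Col6a1 minus Col6a2 shifted by -0.12 and Col4a1 minus Col4a2 by 0.08. Col3a1 minus Col1a1, whose products lie in mixed fibrils, shifted by 1.06, and Col11a1 minus Col5a1, which can share trimers, by -0.43. Col11a1 was within the control range at both ages. This shift therefore rests on a probe set in that range and is not read as a difference between the partner chains. In these 7 pairs the ages did not overlap, and the exact permutation test gave p = 0.1, two-sided, the smallest that 3 against 3 arrays allow (0.114 after Benjamini-Hochberg adjustment over 8 pairs). Among single genes tested, the ages did not overlap in 24.4% with aged above young and in 26.9% with aged below. The share over pairs of genes in general was not counted. This permutation test therefore cannot reach 0.05 here. Col8a1 minus Col8a2 overlapped, with a shift of 0.03 (exact permutation test, p = 0.7). Col8a2 was within the control range at both ages, so the same limit holds for this pair.

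**Figure D4:**
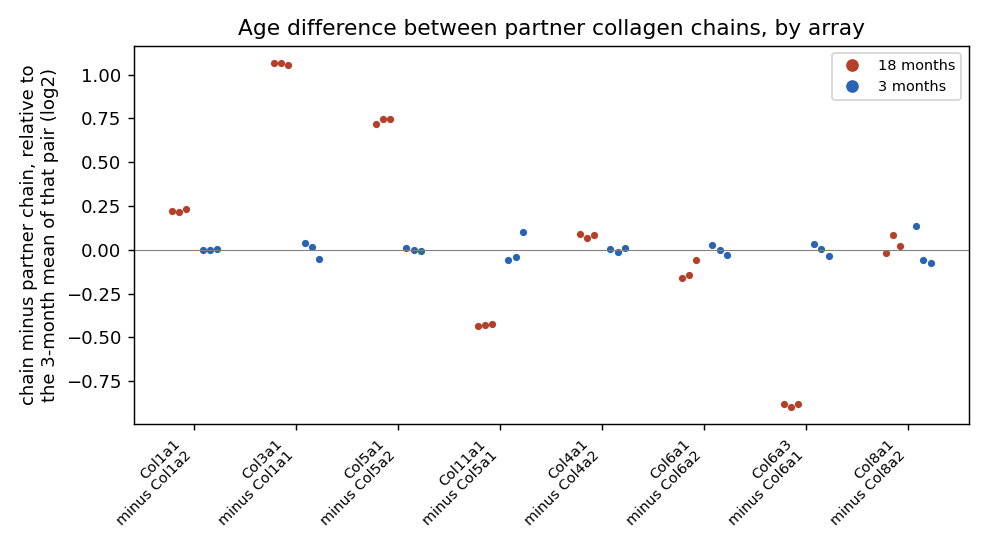
Log2 value of a collagen chain gene minus that of its partner chain on each array, set to 0 at the 3-month mean of the pair; 18-month points stand left of 3-month points. The 18-month arrays of a pair lie together, near 1.06 for Col3a1 minus Col1a1 and near -0.89 for Col6a3 minus Col6a1, and overlap the 3-month arrays for Col8a1 minus Col8a2.

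In the RefSeq table of GRCm38.p6, 8 pairs of the genes described here are next to each other among protein-coding genes. Neighbours on chromosome 10, Col6a1 and Col6a2, had differences of 2.10 and 2.23, and Col4a1 and Col4a2 on chromosome 8 had 0.81 and 0.73. Neighbours on chromosome 1 did not match: Col3a1 rose by 1.85, while the adjacent Col5a2 had a difference of 0.03. The other 5 pairs (Col9a1 with Col19a1, Col4a3 with Col4a4, Col4a5 with Col4a6, Col6a5 with Col6a6 and Col6a4 with Col6a5) had differences between 0.10 and 0.23.

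Genes that act on collagen chains moved in both directions, and most were above the control range. Over all genes with both means above that range, 21.4% rose and 36.2% fell, beside 18.4% and 22.1% of all genes tested. Of 21 genes for hydroxylation, folding and export of chains, 11 rose, 7 fell and 3 did not pass, with a median of 0.12. P4ha3, a catalytic subunit of prolyl 4-hydroxylase, read 10.80, 10.76 and 10.80 at 18 months, against 8.63, 8.48 and 8.45 at 3 months, and rose 4.81-fold (limma, adjusted p = 6.11e-09). The catalytic subunit gene P4ha1 fell by 0.24, and Plod1, a lysyl hydroxylase, rose 1.74-fold. The chaperone gene Serpinh1 (Hsp47) rose by 0.12 and the disulfide isomerase gene Pdia3 fell by 0.51 on the log2 scale.

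Of 11 genes for propeptide removal and crosslinking, 10 rose, none fell and 1 did not pass, with a median of 0.44. None was lower at an unadjusted p under 0.05. Loxl3, a lysyl oxidase that starts crosslinks, read 10.98, 11.02 and 11.05 at 18 months, against 8.48, 8.33 and 8.20 at 3 months, and rose 6.39-fold (limma, adjusted p = 1.02e-08). Lox rose 1.78-fold. Pcolce, which speeds removal of the C-terminal propeptide, rose 1.93-fold, and Tll1, a protease that performs it, rose by 1.43 on the log2 scale from and to means within the control range.

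Of 9 collagen receptor genes tested, 5 rose, 3 fell and 1 did not pass, with a median of 0.38. Itga11, whose integrin binds fibrillar collagen, read 9.25, 9.29 and 9.36 at 18 months, against 7.84, 7.79 and 7.69 at 3 months, and rose 2.88-fold (limma, adjusted p = 4.91e-08). Itga10, of a second collagen-binding integrin, rose by 1.40 on the log2 scale from a mean within the control range. Their shared partner Itgb1 fell by 0.10. Antxr1 rose 1.93-fold, while Antxr2 and the fibrillar collagen receptor gene Ddr2 fell by 0.34 and 0.27. Of 5 collagen-degrading protease genes tested, 4 rose and none fell (none at an unadjusted p under 0.05 either), with a median of 0.59: Mmp14 rose 1.51-fold, Ctsk 1.97-fold, Mmp2 by 0.19 on the log2 scale, and the collagenase gene Mmp13 by 1.25 from a mean within the control range.

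Of 23 regulators of collagen transcription, 7 rose, 9 fell and 7 did not pass, with a median of -0.02. Ccn2, a matricellular target of TGF-beta, read 10.61, 10.66 and 10.71 at 18 months, against 8.78, 8.67 and 8.66 at 3 months, and rose 3.88-fold (limma, adjusted p = 6.57e-09). Tgfb3 and Tgfb2 rose 1.85-fold and 1.80-fold. The receptor gene Tgfbr1 and the signal carrier gene Smad3 fell by 0.59 and 0.38. Creb3l1, a membrane-bound transcription factor that acts on Col1a1 in mouse osteoblasts, rose 1.65-fold.

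**Figure D5:**
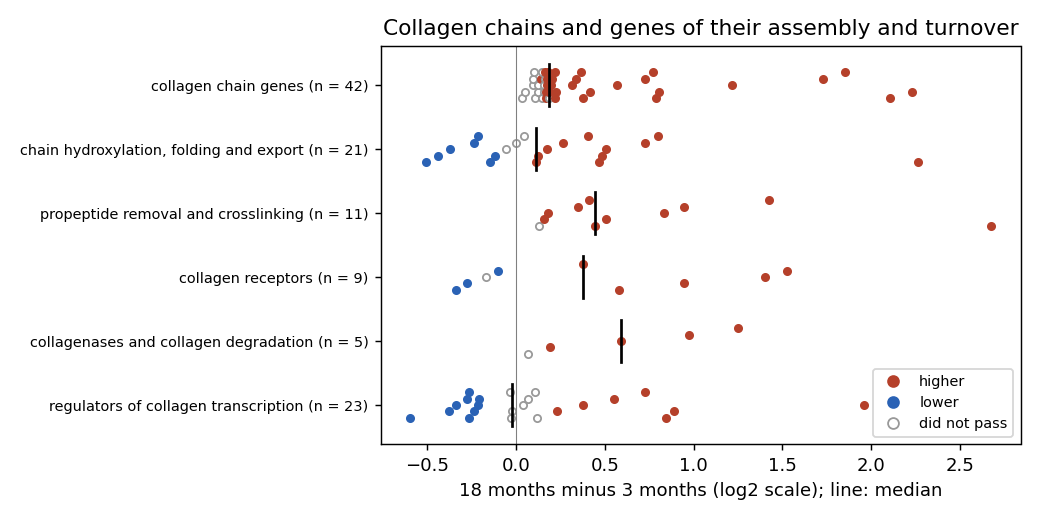
Difference between 18-month and 3-month means on the log2 scale for the 42 tested collagen chain genes and for genes of their assembly, receptors, breakdown and transcription; filled points passed the adjusted p threshold of 0.05 (limma) and black lines are medians. Medians were 0.19 for collagen chains, 0.59 for degradation genes and -0.02 for regulators.

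Markers of other collagen-making cells were read beside these changes. Over all genes with both means within the control range, where many of these markers lay, 12.4% rose and 8.1% fell. In bulk RNA, a change in the number of cells of a type and a change in RNA per cell cannot be told apart. Of 8 cartilage cell markers other than collagens 3 rose and none fell (none at an unadjusted p under 0.05 either), 7 were within the control range at both ages, and their mean log2 value was 6.70 to 6.78 on 18-month arrays and 6.58 to 6.65 on 3-month arrays. Acan, which encodes the main proteoglycan of cartilage, was among the 7. Sox9, the cartilage transcription factor gene that is also in the list of regulators, was the marker above it, with 10.40, 10.42 and 10.47 at 18 months and 9.96, 9.86 and 9.81 at 3 months, and rose 1.47-fold (limma, adjusted p = 1.25e-05, and 0.00246 against 0.3). Of 6 osteoblast and osteocyte markers 2 rose and 1 fell, with a mean of 6.84 to 6.91 at 18 months and 6.66 to 6.72 at 3 months. Alpl rose by 1.29 on the log2 scale from a mean within the control range. Pth1r rose by 0.15 and Bglap fell by 0.43. Both were among the 5 of these 6 markers within that range at both ages. Of 6 tendon and perichondrial markers 4 rose and none fell (none at an unadjusted p under 0.05 either), with a mean of 8.29 to 8.31 at 18 months and 7.44 to 7.45 at 3 months. Postn rose 3.09-fold, and Fmod, Prg4 and Mkx rose by 1.54, 1.52 and 0.38 on the log2 scale, of which Postn, Fmod and Prg4 passed the test against 0.3. Fmod and Mkx lay within the control range at both ages, and Prg4 rose from a mean within it. Scx, above that range at both ages, did not pass (difference -0.03, limma, adjusted p = 0.697), nor did Thbs4 (difference 0.08). The tenomodulin gene Tnmd, which did not pass the filter, was at 4.08 at 18 months and 4.19 at 3 months.

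Among pericyte and smooth muscle markers (9 tested) there were 5 that rose and 2 that fell, with a mean of 8.38 at 18 months on every array and 8.16 to 8.20 at 3 months. Of 8 endothelial markers 2 rose and 2 fell, with a mean of 6.44 to 6.45 at 18 months and 6.30 to 6.35 at 3 months, and 7 were within the control range at both ages. The VEGF receptor genes Kdr and Flt1 rose by 0.69 and 0.63 on the log2 scale, both past the test against 0.3 (limma, adjusted p = 0.000705 and 0.000859). Tek and Vwf fell by 0.22 and 0.14, and the endothelial cadherin gene Cdh5 was at 5.44 at 18 months and 5.45 at 3 months. Of 8 blood cell markers tested 2 rose and none fell (none at an unadjusted p under 0.05 either), all within the control range, with a mean of 6.26 to 6.27 at 18 months and 6.13 to 6.21 at 3 months. Of 12 marrow stromal markers 8 rose and 2 fell, with a mean of at least 8.98 on every 18-month array and of 8.53 to 8.59 on 3-month arrays. The part of cell makeup in the collagen differences was not tested, and the sources used here do not say whether the ages shared a culture or array batch. Age and batch therefore cannot be told apart.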

How the data were processed

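The series gives 1 table of log2 expression values, 1 per probe set and array, as the authors deposited it. MAS5 is named, without a version, per the submitters' processing notes; the sources used here do not give the background correction, scaling or build. No further scaling was applied. Symbols of the platform annotation were updated through RefSeq (GRCm38.p6), which left 31258 probe sets with 1 gene. Of 44 probe sets naming a collagen chain, 1 also names another gene and was not used. Each of the 43 members has 1 probe set; for other genes the brightest was kept. Genes with a mean under the median of all transcript clusters (5.40) were left out, which kept 20190 genes.

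Aged minus young differences were fitted with limma 3.58.1 in R 4.3.3 (lmFit, eBayes with intensity trend, and treat for a difference of 0.3), with Benjamini-Hochberg adjustment at 0.05 and all 6 arrays. Intervals are 95% intervals from that fit. Chain pairs used exact permutation tests in scipy 1.17.1, and figures matplotlib 3.10.9. The fit was tested on simulated data. The depth of an array has no count equivalent; 3 arrays per age limit precision. The members and all lists were chosen with earlier results of these data known. By rule, values on every array are given for members past the test with a difference of at least 0.5 and a mean above the control range and for members of chain pairs, and up to 3 passing genes with the smallest p from each other list are named; genes named beyond these were chosen after their values were seen. Same-numbered arrays did not deviate together (r from -0.05 to 0.07), so they were not treated as pairs. This cannot show whether same-numbered arrays were prepared together. The alternatives tried were median centring, quantile normalization, no filter, a filter at the 70th percentile, averaging a gene's probe sets, other variance models, a replicate block and leaving out each array.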

Additional observations from a re-analysis of the deposited data

How the results depend on the processing

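The 10 genes past the test against a difference of 0.3 kept their direction and their call at the adjusted p threshold in every alternative run, and their differences moved little, for example from 2.21 to 2.26 in Col6a2 and from 0.56 to 0.62 in Col1a2. The test against 0.3, repeated after the data were seen under quantile normalization, median centring and without each array, passed those same 10 each time, with Col2a1 as the 11th without 3-month array 3. No collagen chain gene fell in any alternative. The count of 28 that rose was 10 under the test against 0.3 and 16 to 35 when 1 array was left out, while quantile normalization gave 23 and median centring 32; in each of these fits the genes gained or lost were among the 32 with small differences. Over all genes, the test against 0.3 gave 1169 higher and 816 lower, against 3724 and 4471. With the replicate number as a block, 25 collagen chain genes rose, and 3524 genes rose and 4204 fell over all genes tested. Since no pairing by number was seen, this is a check of the model only. Median centring gave 3958 higher and 3842 lower genes, against 3782 and 4755 after quantile normalization. The Col8a1 minus Col8a2 shift, 0.03 over all arrays, was -0.0056 to 0.0982 when 1 array was left out, and below 0 only without 3-month array 3. Of the counts per collagen class 20 moved by over 1.5 times and 85 did not; of the counts of the pathway lists 5 moved, all in the test against 0.3, and 145 did not. Signal limits the dim genes: 21 of the 42 tested lay within the control range at both ages. The causes were not tested.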

Other observations

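The order of the 3-month arrays depended on signal over all genes as well as in the collagen family. Among genes with both means within the control range, 3-month array 1 was the lowest of its group in 51.5% of 9896 genes. Among genes with both means above it, 3-month array 3 was the lowest in 62.1% of 9441 genes.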
